A study of Mus musculus with 6 samples.

Results

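The genes described here are 10 transcription factors of the corneal epithelium, *Pax6*, *Klf4*, *Klf5*, *Trp63*, *Elf3*, *Ehf*, *Grhl1*, *Grhl3*, *Foxc1* and *Ovol1*. They were chosen by symbol for their known roles in surface epithelium, and all 10 were found among the 17784 genes listed and were kept among the 12999 genes with enough counts to be tested. Bulk RNA-seq compared corneal epithelial cells of 3 Ptch1Prrx1 samples with those of 3 control samples. Ptch1Prrx1 stands for *Prrx1-CreERT;Ptch1f/f* mice, in which tamoxifen switches on a recombinase active in keratocytes and other ocular mesenchyme and so removes *Ptch1*, the inhibitory Hedgehog receptor, from cells beneath the epithelium. The labels call the controls WT or ctrl, and the study's panels name them *Ptch1f/f*. According to the labels, mice of both groups were 10 weeks old, received 3 doses of tamoxifen and were followed for 2 months, and the epithelium was then lifted off with EDTA. Totals of expected counts lay between 20296741 and 20625813 per sample. The study's methods describe the samples of a group as biological replicates, and the labels do not name the animals behind them.

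Corneal epithelium is a stratified, non-keratinised tissue whose identity depends on a small set of transcription factors. Pax6 is the master regulator of the eye, and its loss turns the corneal surface toward a skin-like fate. Klf4 and Klf5 are Krüppel-like zinc finger proteins, p63 (encoded by *Trp63*) maintains the basal progenitors of stratified epithelia, and the ETS proteins Elf3 and Ehf, the grainyhead-like proteins and Ovol1 act in epithelial differentiation and barrier formation.

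The samples carried the markers of corneal epithelium. *Krt12*, the cornea-specific keratin, averaged 46897 TPM in control and 42577 TPM in Ptch1Prrx1 samples, with a log2 fold change of -0.10 (adjusted p = 0.645). TPM is a level scaled for gene length and depth that can be compared between genes. *Krt5* (basal keratin), *Aldh3a1* (the abundant corneal crystallin) and *Cdh1* (E-cadherin) had log2 fold changes of 0.04, -0.16 and 0.09, all at an adjusted p of 0.365 or more by edgeR. *Krt14*, a basal keratin, was the 1 of 7 corneal epithelial markers that passed. It rose from 8185, 7761 and 9282 normalized counts in control replicates 1, 2 and 3 to 93069, 48673 and 35435 in Ptch1Prrx1 replicates 1, 2 and 3. The log2 fold change of *Krt14* was 2.81 (SE, the standard error, 0.34; adjusted p = 0.00769), and the gene shares stretches of sequence with other keratins. *Kera*, which defines keratocytes, had at most 1 normalized count in every control sample and 0 in every Ptch1Prrx1 sample. *Ptch1* itself had 517, 659 and 682 normalized counts in control samples and 390, 445 and 471 in Ptch1Prrx1 samples, a log2 fold change of -0.51 (SE 0.13, adjusted p = 0.0401). The recombinase is not described as active in these cells, so this level does not check the deletion. On the first principal component (58.1% of the variance), Ptch1Prrx1 replicate 1 stood at 51.7, replicates 2 and 3 at 18.3 and 19.1, and the controls between -33.7 and -26.5.

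*Klf4* and *Elf3* were the most abundant of the factors, and *Foxc1* and *Ovol1* the least. *Klf4* averaged 1126 ± 23.9 TPM (SD, n = 3) in control samples and ranked 113 among all listed genes. *Elf3* followed with 1012 ± 43.4 TPM and rank 131, and *Pax6* with 424 ± 13.0 TPM and rank 297. *Ehf* (310 ± 7.40 TPM) and *Klf5* (263 ± 18.4 TPM) came next. Each of these 5 exceeded the next in the order in all 6 samples, and neighbours did not overlap in either group. *Trp63* (177 ± 18.6 TPM), *Grhl1* (161 ± 20.3 TPM) and *Grhl3* (143 ± 11.9 TPM) lay close together. *Trp63* exceeded *Grhl1* in 5 of 6 samples, and their levels overlapped in both groups. *Grhl1* and *Grhl3* overlapped in control samples, whereas in Ptch1Prrx1 samples *Grhl3* was the higher in all 3 and the levels did not overlap. The last pair, *Foxc1* (74.9 ± 3.80 TPM) and *Ovol1* (66.7 ± 21.5 TPM), overlapped in control samples, with *Foxc1* the higher in 2 of 3. In Ptch1Prrx1 samples *Ovol1* was the higher in all 3, without overlap. The most and least abundant factor differed 16.9-fold in control samples. In Ptch1Prrx1 samples *Klf4* averaged 1245 ± 83.0 TPM, *Elf3* 1091 ± 76.1 TPM and *Pax6* 353 ± 44.9 TPM, in the same order. *Grhl3* stood at 204 ± 33.7 TPM there, with its rank among all genes at 656 against 1015 in control samples, and *Ovol1* at 108 ± 23.3 TPM, with its rank at 1358 against 2361.

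**Figure D1:**
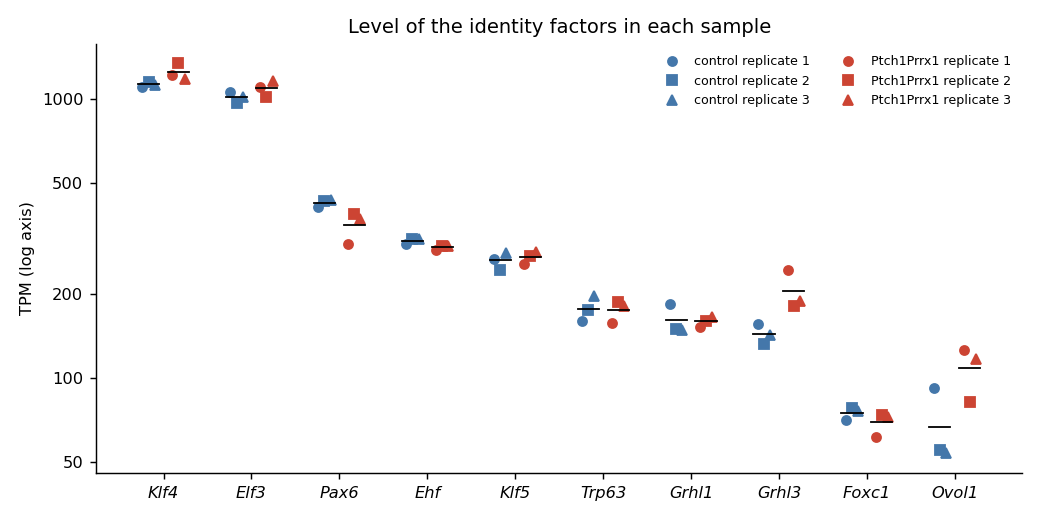
Expression of the 10 factors in TPM (log axis) in each sample, ordered by the control mean, with blue for control, red for Ptch1Prrx1, marker shapes for replicates 1 to 3 and bars for group means. *Klf4* and *Elf3* lie near or above 1000 TPM in all 6 samples, and *Ovol1* is the most scattered, from 53.6 to 126 TPM.

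With the thresholds of the study's methods, a change of 2-fold or more at an adjusted p no higher than 0.05, 0 of the 10 factors were called, against 3.23% of all tested genes (2.34% up and 0.892% down). DESeq2 and limma-voom also called 0 at those thresholds, and 3 of the 10 had an unadjusted p of at most 0.05 in edgeR's quasi-likelihood test, against 33.5% of all tested genes. By adjusted p alone 1 factor changed, *Grhl3*, which rose, while 14.0% of all tested genes (7.61% up and 6.41% down) and 16.0% of the 2188 genes at least as abundant as the least abundant factor passed. By the same test 0 factors had a lower level at an adjusted p of at most 0.05, as with DESeq2 and limma-voom, and 1, *Pax6*, had a lower level at an unadjusted p of at most 0.05. By counts scaled for library size, the control and Ptch1Prrx1 samples did not overlap for 4 of the 10, against 39.9% of all tested genes. *Klf4*, *Klf5* and *Grhl3* were higher and *Pax6* lower, where 19.7% of all tested genes were higher and 20.3% lower. These shares lie near the background of all genes and are no result about the factors. Which factors separated depended on the scale, since by TPM the groups overlapped for *Klf5* and did not overlap for *Ehf*. The median log2 fold change was 0.06 over the factors and -0.01 over all tested genes. Their median absolute log2 fold change was 0.11, against 0.15 for genes at least as abundant. The 95% intervals, not adjusted for the number of genes, excluded a change of 1.5-fold in either direction for 8 factors, all but *Grhl3* and *Ovol1*, and a change of 2-fold for 9, all but *Ovol1*. In bulk samples, fewer cells of a type and less RNA per cell cannot be told apart.

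**Figure D2:**
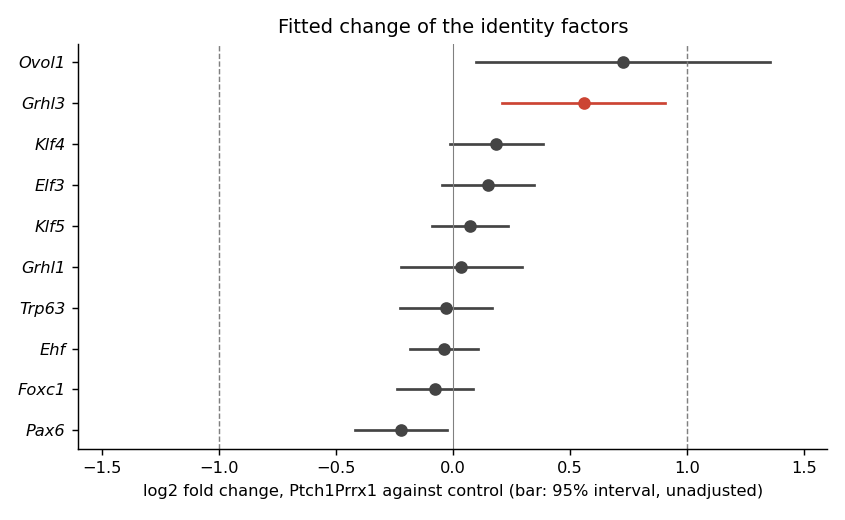
Log2 fold change of each factor (Ptch1Prrx1 minus control) with its 95% interval from edgeR, not adjusted for the number of genes, with dashed lines at a 2-fold change. *Grhl3*, in red, is the single factor at an adjusted p of at most 0.05, and the interval of *Ovol1*, from 0.10 to 1.36, is the one that reaches past 2-fold.

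*Pax6* (gene 18508), the eye master regulator, had 14481, 14616 and 14472 normalized counts in control replicates 1, 2 and 3. It had 11195, 13618 and 12536 in Ptch1Prrx1 replicates 1, 2 and 3. Normalized counts are expected counts scaled by TMM factors to a common library size. Every Ptch1Prrx1 sample lay below every control sample, the lowest being replicate 1, and the coefficient of variation of the controls was 0.557%. The log2 fold change was -0.22 (SE 0.08, 95% interval -0.42 to -0.03), and the adjusted p of 0.112 did not pass. An antisense gene, *Pax6os1*, overlaps *Pax6*. The counting is not stated to use strand, so reads of the pair cannot be told apart. Antisense genes also overlap *Elf3* and *Ovol1*.

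*Klf4* (gene 16600), which supports corneal epithelial differentiation and barrier function, had 32291, 32307 and 30922 normalized counts in control samples. The 3 Ptch1Prrx1 samples had 37116, 38848 and 32677. All 3 exceeded the controls, replicate 3 by the smallest margin. The log2 fold change was 0.19 (SE 0.09, 95% interval -0.01 to 0.39, adjusted p = 0.174). *Klf5* (gene 12224), a relative expressed in proliferating epithelia, had 4348, 3835 and 4343 normalized counts in control samples and 4359, 4440 and 4387 in Ptch1Prrx1 samples. The groups were separated by a narrow gap, and the log2 fold change was 0.07 (SE 0.07, adjusted p = 0.495). The log2 ratio of *Klf4* to *Klf5* TPM within a sample was 2.098 ± 0.126 (SD, n = 3) in control and 2.204 ± 0.124 in Ptch1Prrx1 samples. The difference of 0.11 (SE 0.10) did not pass an exact two-sided permutation test (p = 0.2, adjusted p = 0.2 over 3 ratios). That design of 3 against 3 samples cannot give a p below 0.1.

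*Trp63* (gene 22061), the factor of basal progenitor cells, had 6220, 6928 and 7249 normalized counts in control samples and 6705, 7075 and 6201 in Ptch1Prrx1 samples. The groups overlapped throughout, with a log2 fold change of -0.03 (SE 0.08, 95% interval -0.23 to 0.17, adjusted p = 0.838). *Foxc1* (gene 17300), a forkhead factor of anterior segment development that ocular mesenchyme also expresses, had 2715, 2877 and 2761 normalized counts in control samples and 2464, 2818 and 2639 in Ptch1Prrx1 samples. Replicate 1 was the lowest of the latter, the groups overlapped, and the log2 fold change was -0.08 (SE 0.07, adjusted p = 0.475). Keratocyte markers summed to 36.7 TPM in control replicate 3 and to at most 6.84 TPM in the other 5 samples. *Foxc1* in control replicate 3, at 76.0 TPM, lay between its levels in the other control samples.

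*Elf3* (gene 13710) and *Ehf* (gene 13661) are epithelium-specific ETS factors. *Elf3* had 19751, 17412 and 17911 normalized counts in control samples and 21505, 18859 and 20694 in Ptch1Prrx1 samples. Control replicate 1 lay within the range of the Ptch1Prrx1 samples, and the log2 fold change was 0.15 (SE 0.08, adjusted p = 0.253). *Ehf* had the most even counts among controls, 12707, 12699 and 12591, against 12668, 12478 and 11879 in Ptch1Prrx1 samples. *Ehf* had a log2 fold change of -0.04 (SE 0.06, 95% interval -0.18 to 0.11, adjusted p = 0.716). The log2 ratio of *Elf3* to *Ehf* TPM was 1.71 ± 0.09 (SD, n = 3) in control and 1.89 ± 0.11 in Ptch1Prrx1 samples, a difference of 0.19 (SE 0.08, exact permutation p = 0.2, adjusted p = 0.2).

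*Grhl3* (gene 230824), a grainyhead-like factor of barrier formation and epidermal repair, was the single factor that passed the test. It had 4152, 3379 and 3576 normalized counts in control replicates 1, 2 and 3, and 6767, 4816 and 4781 in Ptch1Prrx1 replicates 1, 2 and 3. Every Ptch1Prrx1 sample exceeded every control sample, and replicate 1 stood well above the other 2. It rose 1.47-fold, with a log2 fold change of 0.56 (SE 0.15, 95% interval 0.21 to 0.91, adjusted p = 0.0480 in edgeR's quasi-likelihood test). Leaving out any 1 of the 6 samples ended the call, with adjusted p from 0.0507 to 0.169. Each of these fits also had fewer passing genes in all, 0.704% to 10.1% of tested genes against 14.0%. Without Ptch1Prrx1 replicate 1 the log2 fold change was 0.38.

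*Grhl1* (gene 195733), the relative of *Grhl3* that also acts in epidermal barrier and desmosome formation, did not pass. It had 6107, 4726 and 4622 normalized counts in control samples and 5312, 5324 and 5208 in Ptch1Prrx1 samples, so that the Ptch1Prrx1 samples fell inside the control range. The log2 fold change was 0.04 (SE 0.11, adjusted p = 0.849), and its sign turned with limma on log2 TPM. *Grhl1* exceeded *Grhl3* in all 3 control samples, with a mean TPM ratio of 1.12, and *Grhl3* exceeded *Grhl1* in all 3 Ptch1Prrx1 samples, with a ratio of 0.796. The log2 ratio was 0.25, 0.19 and 0.07 in control replicates 1, 2 and 3, and -0.68, -0.18 and -0.19 in Ptch1Prrx1 replicates 1, 2 and 3. The difference of -0.51 (SE 0.17) had an exact permutation p of 0.1, the smallest that 3 against 3 samples allow, and an adjusted p of 0.2. The family member *Grhl2*, which was named after its values were seen, had a log2 fold change of 0.10 (adjusted p = 0.397).

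**Figure D3:**
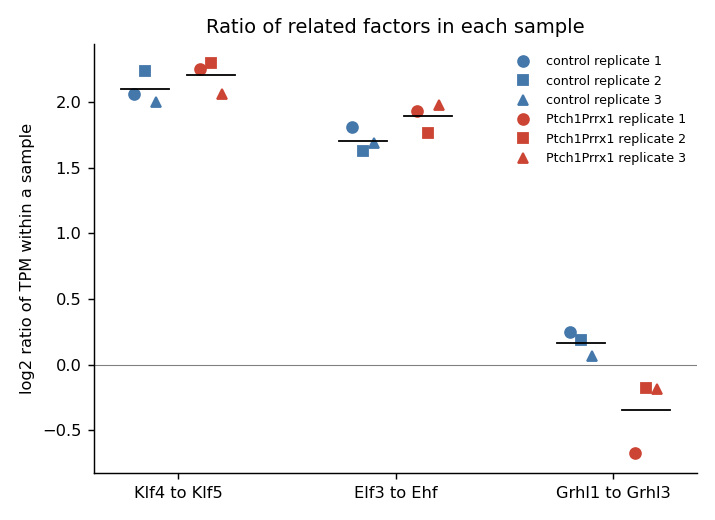
Log2 ratio of TPM within each sample for 3 pairs of related factors, with bars at group means. The *Grhl1* to *Grhl3* ratio is above 0 in the 3 control samples and below 0 in the 3 Ptch1Prrx1 samples, and the groups overlap for the *Klf4* to *Klf5* and *Elf3* to *Ehf* ratios.

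The promoter sequences of *Grhl3*, *Grhl1* and *Pax6* show what lies upstream of the factor that passed the test, of its closest relative in the set, and of the factor with the lowest fold change. They are the 250 bases before the annotated start, from RefSeq on build GRCm38.p6, whereas the submitters' processing notes name mm9 for the expression files. A promoter was found for 6 of the 10 factors, in 8 windows. Capitals mark matches on either strand to 7 motifs.

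Grhl3, chr4:135573633-135573882, minus strand: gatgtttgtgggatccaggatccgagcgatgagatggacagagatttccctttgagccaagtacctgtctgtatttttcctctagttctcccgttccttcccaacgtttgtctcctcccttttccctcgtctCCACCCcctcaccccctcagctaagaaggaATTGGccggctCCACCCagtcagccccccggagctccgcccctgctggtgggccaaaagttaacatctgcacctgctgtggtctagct
Grhl1, chr12:24572037-24572286, plus strand: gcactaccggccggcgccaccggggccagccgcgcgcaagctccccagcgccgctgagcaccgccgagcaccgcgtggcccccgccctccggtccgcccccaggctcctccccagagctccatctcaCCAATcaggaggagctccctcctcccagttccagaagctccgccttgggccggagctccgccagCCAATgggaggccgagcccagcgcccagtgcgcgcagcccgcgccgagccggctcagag
Pax6, chr2:105668646-105668895, plus strand: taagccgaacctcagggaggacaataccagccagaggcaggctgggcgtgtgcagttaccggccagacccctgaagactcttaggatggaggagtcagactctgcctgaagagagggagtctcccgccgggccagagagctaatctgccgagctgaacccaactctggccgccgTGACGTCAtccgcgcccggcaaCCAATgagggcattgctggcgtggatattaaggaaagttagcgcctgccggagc

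The *Grhl3* promoter held 2 matches to the Krüppel-like factor motif CCACCC, at positions -118 and -77 from the start, with a CCAAT box on the opposite strand between them, at position -88. CCACCC occurred in 28.1% of all 32851 promoter windows of that length and in 3 of the 8 windows of the factors. *Grhl1* had 2 annotated windows. The one printed held 2 CCAAT boxes, at positions -123 and -59, and 75.6% of its bases were G or C, against 56.0% for *Grhl3*. The other, chr12:24580469-24580718, held 52.0% G or C, no CCAAT box and 1 CCACCC match on the opposite strand, at position -81. CCAAT occurred in 33.9% of all windows. *Pax6* also had 2 windows. The one printed held a match to the cyclic AMP response element TGACGTCA at position -76, found in 1.55% of all windows, and a CCAAT box at position -54, and the other held no match to any of the motifs. None of the 8 windows held a match to the AP-1 motif TGANTCA, the ETS motif CCGGAAG, the grainyhead motif AACCNGTT or the TATA box TATAAA, which occurred in 6.75%, 6.91%, 1.79% and 12.4% of all windows. A match is a description of the letters and not a binding site.

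*Ovol1* (gene 18426), a zinc finger factor that limits proliferation as epidermal cells differentiate, had the highest log2 fold change of the 10. It had 2175, 1201 and 1152 normalized counts in control replicates 1, 2 and 3, and 3043, 1901 and 2556 in Ptch1Prrx1 replicates 1, 2 and 3. Control replicate 1 exceeded Ptch1Prrx1 replicate 2, so the groups overlapped. The log2 fold change was 0.73 (SE 0.27, 95% interval 0.10 to 1.36), and the adjusted p of 0.107 did not pass. Without control replicate 1 the log2 fold change was 1.09 with an adjusted p of 0.0360. The family member *Ovol2*, named after its values were seen, had a log2 fold change of -0.13 (adjusted p = 0.602).

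By normalized counts, control replicate 1 was also the highest control for *Grhl3*, *Grhl1* and *Elf3*, and by a narrow margin for *Klf5* and *Ehf*. It was the highest control for 11 of 20 immediate early genes, and their summed level there, 1691 TPM, lay between those of control replicates 3 and 2 (1492 and 1839 TPM). *Fosl1* and *Atf3*, named after their values were seen, stood far above the other controls there, while *Fos*, *Jun* and *Egr1* did not set it apart. *Fosl1* had 56.6 normalized counts there against 0.983 and 3.88 in control replicates 2 and 3, and *Atf3* had 426 against 40.3 and 28.1. *Fos* had 2308 against 2822 and 2438, *Jun* 1741 against 1827 and 1767, and *Egr1* 2396 against 3635 and 1805. Without control replicate 1 and Ptch1Prrx1 replicate 1 together, a choice made after seeing the data, *Grhl3* had a log2 fold change of 0.47 (adjusted p = 0.0130) and *Ovol1* one of 0.92 (adjusted p = 0.0132). Ptch1Prrx1 replicate 1 was the farthest of its group from the control mean for 5 factors, *Pax6*, *Elf3*, *Grhl3*, *Foxc1* and *Ovol1*. The share over all tested genes was not computed, and that replicate also stood apart on the first principal component, so the count is no result about the factors.

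**Figure D4:**
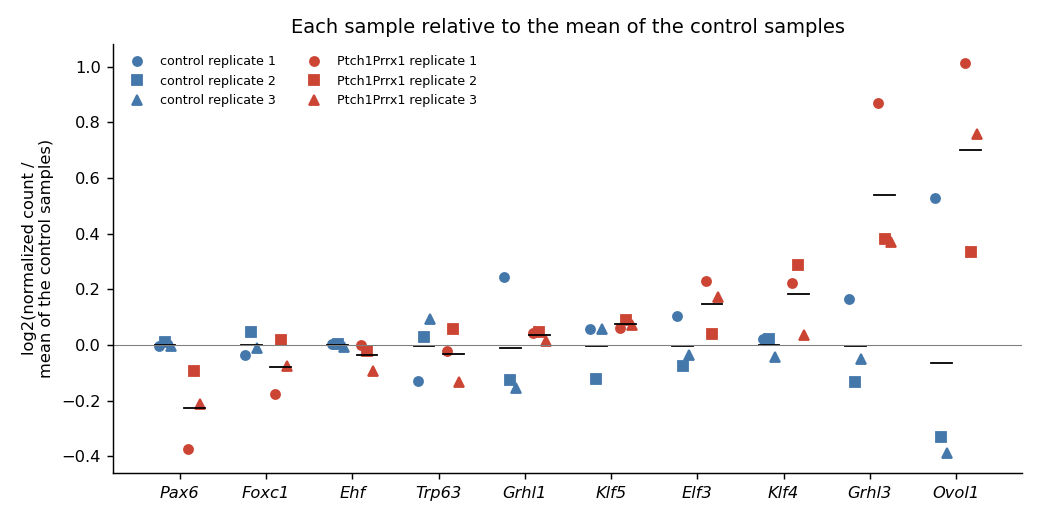
Log2 of each sample's normalized count over the control mean, for the 10 factors ordered by fold change, with bars at group means. Ptch1Prrx1 replicate 1 (red circle) is the highest sample for *Grhl3* (0.87) and *Ovol1* (1.01) and the lowest for *Pax6* (-0.38), and control replicate 1 (blue circle) is raised for *Ovol1*.

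The 3 genes whose log2(TPM + 1) followed *Grhl3* most closely over the 6 samples, among 11976 genes with a mean of at least 1 TPM, were *Rab34*, *Pinlyp* and *Pdpn*, with Pearson r of 0.998, 0.997 and 0.997. The points share the group difference and the high value of Ptch1Prrx1 replicate 1, and 11 genes had an r above 0.99. The log2 fold change was 0.28 for *Rab34* (adjusted p = 0.140), 2.08 for *Pinlyp* (adjusted p = 0.0266) and 0.50 for *Pdpn* (adjusted p = 0.0619).

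Among 33 tested transcription factors of surface epithelium outside the set, 9 rose and 4 fell by adjusted p, where 7.61% of all tested genes rose and 6.41% fell. The median log2 fold change was 0.15, against -0.01 over all tested genes, and the other 20 did not pass. *Maf* reached the count needed for testing in every Ptch1Prrx1 sample but not in every control sample, and without it 8 of 32 rose. *Maf*, a leucine zipper factor, had 4.97, 3.93 and 14.6 normalized counts in control samples and 67.2, 27.7 and 33.8 in Ptch1Prrx1 samples, and rose with a log2 fold change of 2.43 (adjusted p = 0.0317). The homeobox gene *Barx2* rose by 2.28 (adjusted p = 0.0188) and *Ets1* by 1.16 (adjusted p = 0.0430) on the log2 scale. *Elf5*, an ETS relative of *Elf3* and *Ehf* named after its values were seen, had a log2 fold change of 0.83 (adjusted p = 0.0233). The likewise named *Elf1*, *Elf2* and *Elf4* had 0.27, -0.02 and 0.28 (adjusted p = 0.0660, 0.839 and 0.147) and did not pass. Of the Krüppel-like genes in the list, also named afterwards, *Klf7* had 1.14 (adjusted p = 0.00329) and *Klf3* 0.12 (adjusted p = 0.504). Of those that fell, *Dlx3*, a homeobox factor of epidermal differentiation, had a log2 fold change of -1.11 (adjusted p = 0.0355). *Hes1*, the Notch target that keeps progenitors undifferentiated, had one of -0.85 (adjusted p = 0.0170), and *Meis1*, a homeobox factor of eye development, one of -0.42 (adjusted p = 0.0469).

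Of 15 tested corneal genes that Pax6 or Klf4 is known to influence, 3 rose and 2 fell by adjusted p, where 7.61% of all tested genes rose and 6.41% fell, and the median log2 fold change was -0.03. *Clu*, the secreted chaperone clusterin, rose from 7374, 7547 and 7020 normalized counts in control samples to 16352, 14485 and 13132 in Ptch1Prrx1 samples, a log2 fold change of 1.00 (adjusted p = 0.00376). The tight junction genes *Cldn4* and *Tjp1* rose by 0.85 (adjusted p = 0.0294) and 0.37 (adjusted p = 0.0208) on the log2 scale. *Lypd2* had a log2 fold change of -0.60 (adjusted p = 0.0230) and the desmosomal cadherin *Dsg1a*, which has close paralogs, one of -0.55 (adjusted p = 0.0183). Summed over the list, the level was 131200 to 141510 TPM in control and 109720 to 137590 TPM in Ptch1Prrx1 samples, and the groups overlapped. Most of that sum was *Krt12*, *Aldh3a1* and *Krt5*, which averaged 46897, 30551 and 24553 TPM in control samples, so it says little about the rest of the list.

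Genes of epidermal differentiation, the program that replaces the corneal one when Pax6 is lost, were at low levels. Of 12 tested, 4 (*Flg*, *Rptn*, *Klk7* and *Lce3c*) entered the test through their counts in Ptch1Prrx1 samples alone, and so had to be higher there. *Tgm3* reached the count needed for testing in every control sample but not in every Ptch1Prrx1 sample. It was set aside too, with a log2 fold change of -0.42 (adjusted p = 0.572). Of the other 7, 3 rose and 1 fell by adjusted p, with a median log2 fold change of 0.25, where 7.61% of all tested genes rose and 6.41% fell. Summed over all 16 genes of the list found in the data, the level was 49.1 to 54.1 TPM in control samples. It was 185, 90.4 and 78.3 TPM in Ptch1Prrx1 replicates 1, 2 and 3. The value of replicate 1 was mostly *Cdsn* (78.0 TPM) and *Ivl* (35.7 TPM), with *Lce3c* at 17.4 TPM and *Sprr2d* at 17.3 TPM. *Sprr2d*, named after its values were seen, was not tested and had 0.17 TPM in replicates 2 and 3. The 3 rising genes among the 7, named after their values were seen, were *Cdsn*, *Ivl* and *Casp14*. Their log2 fold changes were 2.42, 1.06 and 0.40 (adjusted p = 0.0453, 0.0212 and 0.0419). The 3 tested genes with the highest fitted change were among the 4 that entered through Ptch1Prrx1 samples alone. They were near the limit of detection in control samples. *Klk7*, a skin protease, had 5, 2 and 2 counts there and 88, 32 and 26 in Ptch1Prrx1 samples. *Rptn* (repetin) had 1, 0 and 2 counts against 12, 16 and 14, and *Flg* (filaggrin) had 2, 2 and 1 against 12, 13 and 12. *Krt1*, the suprabasal epidermal keratin, fell, with a log2 fold change of -0.64 (adjusted p = 0.0401).

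**Figure D5:**
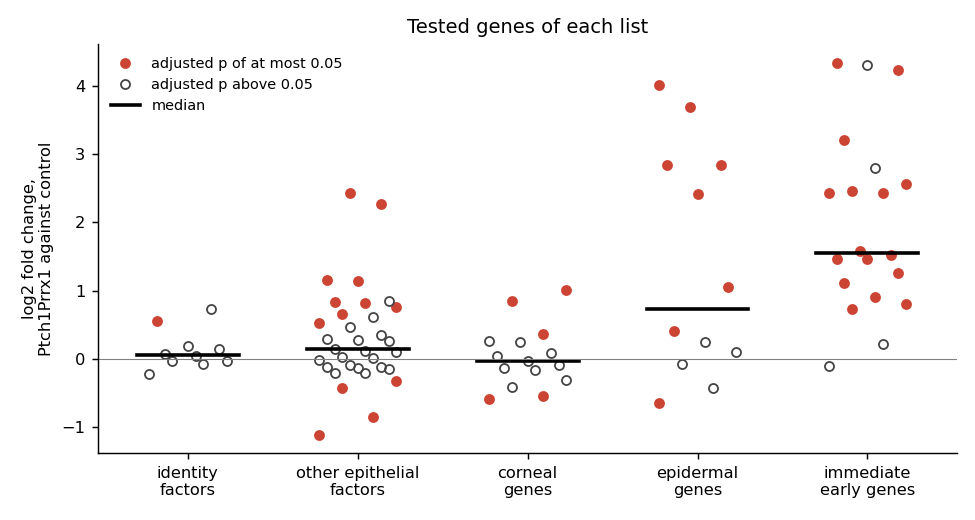
Log2 fold change (Ptch1Prrx1 minus control) of every tested gene in 5 gene lists, with filled red points for an adjusted p of at most 0.05 and bars at the list medians. The medians are 0.06 for the 10 factors, 0.15 for the other epithelial factors, -0.03 for corneal genes, 0.73 for epidermal genes and 1.55 for immediate early genes. Those of the other factors, epidermal and immediate early genes include 1, 4 and 3 genes that reached the count needed for testing in every Ptch1Prrx1 but not every control sample.

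Immediate early genes, which stress and tissue handling switch on within minutes, moved with the group. Of 20 tested, *Fosl1*, *Egr2* and *Egr3* reached the count needed for testing in every Ptch1Prrx1 sample but not in every control sample. They were set aside, although *Fosl1* also reached it in control replicate 1. Of the other 17, 14 rose by adjusted p, against 7.61% of all tested genes, with a median log2 fold change of 1.47. Summed over all 20, the level was 1492 to 1839 TPM in control and 3541 to 4237 TPM in Ptch1Prrx1 samples. *Fos*, *Jun* and *Egr1* rose by 1.26, 2.47 and 1.52 on the log2 scale (adjusted p = 0.0180, 0.00436 and 0.0186). Their part in the values of the factors was not tested.

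Markers of other cells were checked for the same samples. Conjunctival markers summed to 1410 to 2341 TPM in control samples and to 4691, 2194 and 2915 TPM in Ptch1Prrx1 replicates 1, 2 and 3, and limbal markers to 1230 to 2283 TPM and to 3867, 1855 and 3059 TPM. Both sums were highest in Ptch1Prrx1 replicate 1, the sample with the highest *Grhl3* and *Ovol1*. Of 6 tested conjunctival markers 4 had a log2 fold change above 0, and 1 passed, *Krt8*, which fell (log2 fold change -0.91, adjusted p = 0.0139) and averaged 13.5 TPM in control samples. The abundant members made up most of the sum. *Krt13* averaged 1541 TPM in control and 2345 TPM in Ptch1Prrx1 samples (log2 fold change 0.68, adjusted p = 0.107). *Krt4* averaged 160 and 532 TPM (1.80, adjusted p = 0.0685) and *Krt19* 143 and 366 TPM (1.46, adjusted p = 0.0793), both named after their values were seen. Of 7 tested limbal markers 5 had a log2 fold change above 0, and 1 passed, the transporter *Abcg2*, which fell (log2 fold change -0.53, adjusted p = 0.0476) and averaged 24.0 TPM in control samples. *Krt15*, the most abundant limbal marker and likewise named after its values were seen, averaged 1157 TPM in control and 2206 TPM in Ptch1Prrx1 samples, with a log2 fold change of 0.99 (adjusted p = 0.126). The lowest adjusted p was 0.223 among 4 tested keratocyte markers, 0.147 among 2 corneal endothelial, 0.213 among 5 immune and 0.184 among 3 melanocyte markers. Immune markers summed to 58.5 to 72.0 TPM in control and 56.7 to 84.7 TPM in Ptch1Prrx1 samples, melanocyte markers to 8.19 to 9.53 and 8.87 to 10.1 TPM, and corneal endothelial markers to 24.3 to 27.9 and 26.1 to 30.1 TPM. Most of the immune sum was *Cd68*, which averaged 47.1 TPM in control and 55.2 TPM in Ptch1Prrx1 samples. Most of the endothelial sum was *Slc4a11*, at 25.2 and 28.0 TPM, and both genes were named after their values were seen. The vascular markers were too low to test, at 0.09 to 0.32 TPM summed. Keratocyte markers summed to 2.85 to 36.7 TPM in control and 3.93 to 6.84 TPM in Ptch1Prrx1 samples. The highest sum, in control replicate 3, was mostly *Col1a2* (26.0 TPM) and *Prrx1* (4.66 TPM), named after their values were seen, while *Col1a1* averaged 0.247 TPM in control samples. *Ptprc*, which marks leukocytes, averaged 0.0867 TPM in each group. The part of conjunctival or limbal cells in the values of the factors was not tested.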

How the data were processed

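RNA was taken from corneal epithelial cells of 6 samples, 3 per group. According to the submitters' notes and the study's methods, the authors aligned clean reads with Bowtie2 2.2.5 and quantified genes with RSEM 1.2.12, and the notes name mm9. The labels name an Illumina kit, and the study describes rRNA depletion and nanoball sequencing. The authors deposited expected counts, which RSEM estimates per gene without scaling for depth, together with TPM and FPKM values. The deposited FPKM values were not used. Of the values above 0, 39.4% were not whole, because RSEM divides reads that match several genes. The submitters did not state the strand setting.

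Expected counts were rounded, and the 12999 genes kept by filterByExpr entered the quasi-likelihood test of edgeR 4.0.16 in R 4.3.3 after TMM scaling (0.960 to 1.03), with Benjamini-Hochberg adjustment over all of them. Adjusted p without another name comes from this test. Standard errors are the absolute log2 fold change over the square root of F. Samples within a group differed by more than sampling noise (chi-square per degree of freedom 10.1 to 37.8). At this depth each factor had at least 1187 counts in every sample, and a floor of 3 counts lay at 0.145 to 0.148 CPM, which allows for counting error alone. Log2 TPM ratios were compared with a two-sided exact permutation test.

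The factors, the gene lists and the tests were chosen with earlier results of these data known. The rule named all 10 factors, at most 3 genes with the highest and 3 with the lowest fold change among passing members of each other list, fixed marker genes, *Ptch1*, *Fos*, *Jun*, *Egr1* and the 3 genes closest to each passing factor. Exceptions are named in the text. *Lum*, *Muc5ac* and 5 other listed genes were not analysed here.

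Alternatives were DESeq2 1.42.0, limma-voom (limma 3.58.1), RLE and upper-quartile factors, at least 1 count in any sample, at least 10 in every sample, limma on log2(TPM + 1) and log2(TPM + 0.1), a replicate block and each sample left out in turn. The procedure was also run on simulated counts with each gene's fitted spread. That run held no sample set apart as Ptch1Prrx1 replicate 1 was, and no statement here rests on it.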

Additional observations from a re-analysis of the deposited data

How the results depend on the processing

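Every factor kept the sign of its log2 fold change under the alternatives run, except *Trp63* and *Grhl1*, whose changes were close to 0. *Trp63* ranged from -0.092 to 0.019 and *Grhl1* from -0.038 to 0.18 with 1 sample left out or without replicate 1 of both groups, and *Grhl1* was -0.009 with limma on log2(TPM + 1) and on log2(TPM + 0.1). *Grhl3* passed under every alternative with all 6 samples, with adjusted p from 0.00217 (DESeq2) to 0.0497 (limma-voom), and under none that left out 1 sample. With 1 sample left out, the number of factors that rose by adjusted p ranged from 0 to 1, the 1 being *Ovol1* without control replicate 1, where it also passed 2-fold (0 to 1). Across the lists the numbers with 1 sample left out ranged from 1 to 6 (against 9) for other factors that rose, 0 to 3 (against 4) for those that fell, 1 to 3 (against 3) and 0 to 2 (against 2) for corneal genes that rose and fell, and 0 to 6 (against 7) and 0 to 1 (against 1) for epidermal genes. Without control replicate 2, 0.704% of all tested genes passed, against 14.0% with all samples, so lost calls there are not particular to these lists. DESeq2 gave 5 corneal genes that rose. With at least 10 counts in every sample, 3 epidermal genes rose, 2 rose with log2(TPM + 1) and 3 with log2(TPM + 0.1), and the TPM fits gave 2 other factors that fell. With 1 sample left out, the differences in log2 TPM ratio ranged from 0.055 to 0.177 for *Klf4* to *Klf5* (0.106 with all samples), from 0.145 to 0.248 for *Elf3* to *Ehf* (0.186) and from -0.598 to -0.351 for *Grhl1* to *Grhl3* (-0.514), and a p below 0.05 was out of reach in each case. Without control replicate 1 and Ptch1Prrx1 replicate 1, which was chosen after seeing the data, 2 factors rose (*Grhl3* and *Ovol1*), 1 corneal gene fell and 0 epidermal genes fell. Of the 13068 genes tested in that fit, 631 rose and 476 fell (8.47% passing). The causes were not tested.

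Deviations of same-numbered samples correlated at 0.105, -0.014 and 0.019 across genes, and those of differently numbered samples at -0.181 to 0.181. With 3 samples per group, these values cannot show whether the replicate numbers pair the samples. A replicate block gave 2 factors that rose, *Grhl3* (adjusted p = 0.0147) and *Ovol1* (adjusted p = 0.0240), and 0 epidermal genes that fell. Of all 12999 tested genes, 1042 rose and 850 fell with the block (14.6% passing), against 989 and 833 without it (14.0%).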
